A study of Mus musculus with 6 samples.

Results

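*Upp1*, which encodes uridine phosphorylase, and 9 other genes of pyrimidine salvage and synthesis were examined in activated CD8 T cells in which KLF2 expression was maintained. The group was selected on *Upp1*, which was chosen for its large difference between the same 6 arrays that are described here, so that its values are given as a description with no test. The other 9 genes (*Cda*, *Tk1*, *Uck1*, *Uck2*, *Tymp*, *Umps*, *Cad*, *Dhodh* and *Ctps*) were listed for their place in the pathway. That choice was made with earlier results of these data known. All probe sets annotated to exactly 1 of these genes were taken. They numbered 20 and covered 9 of the 10 genes, out of 45037 probe sets and 18193 genes measured. *Tymp*, which encodes thymidine phosphorylase, had no probe set of its own in the annotation used, so that its RNA was not analysed here.

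Cells make pyrimidine nucleotides de novo or recover them from nucleosides. In the de novo route the multifunctional enzyme CAD makes dihydroorotate, DHODH in the mitochondrial inner membrane oxidises it to orotate, and UMPS turns orotate into uridine monophosphate, while CTP synthase makes CTP from UTP. In salvage, UCK1 and UCK2 phosphorylate uridine and cytidine, TK1 phosphorylates thymidine, CDA deaminates cytidine to uridine, and uridine phosphorylase reversibly splits uridine into uracil and ribose phosphate. T lymphocytes are known to raise de novo pyrimidine synthesis when they are activated and divide.

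RNA came from cytotoxic T lymphocytes (CTL) grown from spleens of C57BL/6 mice aged 8 to 12 weeks, all carrying the P14 T cell receptor transgene, which recognises a peptide of the virus LCMV. In both groups the cells were given this peptide for 48 hours, were infected with a retrovirus at 18 hours, were kept in IL-2 for another 48 hours and were purified by FACS for GFP on day 4. These times are those of the labels, and a legend of the study gives a longer time in IL-2. GFP-KLF2 cells (n = 3 arrays) received a fusion of GFP with KLF2, and evGFP cells (n = 3 arrays) received the empty vector with GFP alone. KLF2 is a transcription factor that is normally lost from T cells on activation. The fusion with GFP is made from the retroviral vector and not from the *Klf2* gene of the cells. The labels call the arrays of a group biological replicates, and the sources used here do not say how many mice stand behind each.

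Values are log2 intensities, 1 per probe set and array, so that 1 unit is 2-fold. The median of an array was 5.64 to 5.67 and its lower quartile 4.18 to 4.25, and levels of different genes cannot be compared with each other. A gene other than *Upp1* is said to have risen or fallen where limma, fitted to all 45037 probe sets with Benjamini-Hochberg adjustment, gave an adjusted p under 0.046. A value in brackets before an adjusted p is a log2 fold change. Where nothing else is said, the brightest probe set stands for a gene. At this threshold 6.22% of all genes rose and 8.35% fell, with a median log2 fold change of -0.01. Rises were 42.7% of all calls and 59.1% after cyclic loess scaling. An exact permutation test of 3 against 3 arrays cannot go below p = 0.1. In bulk RNA, fewer cells that express a gene and less of its RNA per cell cannot be told apart. The probe set of *Klf2* itself read 9.83, 9.67 and 8.74 in GFP-KLF2 cells, against 10.99, 10.37 and 8.80 in evGFP cells (log2 fold change -0.64, adjusted p = 0.552). According to the study, the construct does not carry the untranslated end of the *Klf2* RNA that these probes read, so that this probe set does not check the labels.

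KLF proteins are known to bind GC-rich DNA with the core CACCC. Promoters are shown for *Upp1*, for *Umps* and *Ctps*, which fell, and for *Uck2*, which did not pass the test. The changes below can thus be set beside these letters. Each promoter runs 5′ to 3′ from 250 bases before to 50 bases after an annotated start, from RefSeq on GRCm38.p6. There 9 of the 10 members had a window, and *Dhodh* had none. Capitals mark CACCC or its reverse complement GGGTG.
Upp1, start 1 (chr11:9117758-9118057, plus strand): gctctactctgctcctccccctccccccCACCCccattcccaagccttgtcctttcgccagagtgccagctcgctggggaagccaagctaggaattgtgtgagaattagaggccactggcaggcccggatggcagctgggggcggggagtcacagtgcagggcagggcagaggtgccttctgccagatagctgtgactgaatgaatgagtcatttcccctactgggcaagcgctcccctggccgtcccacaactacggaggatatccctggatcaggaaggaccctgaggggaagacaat
Upp1, start 3 (chr11:9118257-9118556, plus strand): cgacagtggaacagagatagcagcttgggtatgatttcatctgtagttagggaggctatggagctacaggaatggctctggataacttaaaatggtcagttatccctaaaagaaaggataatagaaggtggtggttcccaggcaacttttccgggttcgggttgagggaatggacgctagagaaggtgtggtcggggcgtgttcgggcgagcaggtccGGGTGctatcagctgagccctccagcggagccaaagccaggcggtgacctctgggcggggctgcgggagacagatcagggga
Umps (chr16:33966989-33967288, minus strand): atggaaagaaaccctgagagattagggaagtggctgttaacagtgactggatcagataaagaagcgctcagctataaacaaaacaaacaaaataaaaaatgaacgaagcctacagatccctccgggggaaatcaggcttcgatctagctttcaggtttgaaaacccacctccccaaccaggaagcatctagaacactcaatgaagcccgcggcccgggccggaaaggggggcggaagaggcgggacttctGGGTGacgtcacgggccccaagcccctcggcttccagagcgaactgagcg
Ctps, start 1 (chr4:120570227-120570526, minus strand): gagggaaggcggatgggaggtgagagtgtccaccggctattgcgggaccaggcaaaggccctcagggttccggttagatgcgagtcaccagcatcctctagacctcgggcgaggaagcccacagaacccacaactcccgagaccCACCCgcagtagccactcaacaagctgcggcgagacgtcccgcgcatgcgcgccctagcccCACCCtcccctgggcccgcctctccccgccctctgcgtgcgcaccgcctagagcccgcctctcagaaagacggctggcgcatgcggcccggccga
Uck2 (chr1:167285078-167285377, minus strand): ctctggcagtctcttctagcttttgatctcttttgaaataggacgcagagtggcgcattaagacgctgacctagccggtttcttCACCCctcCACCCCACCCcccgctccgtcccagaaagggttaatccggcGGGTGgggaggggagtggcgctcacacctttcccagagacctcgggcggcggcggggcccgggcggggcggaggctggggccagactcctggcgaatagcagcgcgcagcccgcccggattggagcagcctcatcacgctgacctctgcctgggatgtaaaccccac

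Both windows of *Upp1* printed here held 1 match each, and its second start, whose window overlaps the first, held 0. Among the members that fell, *Umps* held 1, the 2 windows of *Ctps* held 2 and 3, and *Cad* held 0. Among those that did not pass, *Uck2* held 4, *Cda* held 2, each window of *Uck1* held 1 and *Tk1* held 0. *Tymp*, which had no probe set of its own, held 0. Every window printed held a match, and windows that held 0 were not printed. Of 32851 windows of this length over all genes 57.5% held at least 1 match. A match is a stretch of letters and not a measured binding site.

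The RNA of *Upp1* was higher in every GFP-KLF2 array than in any evGFP array. Its single probe set (Entrez gene 22271) read 11.57, 11.49 and 10.07 in GFP-KLF2 cells, against 6.15, 6.19 and 6.53 in evGFP cells. On the linear scale these were intensities of 3050, 2870 and 1070 in GFP-KLF2 cells, against 71, 73 and 92.3 in evGFP cells. The groups lay far apart, with GFP-KLF2 replicate 3 the lowest of its group and evGFP replicate 3 the highest of its own. The means were 11.04 ± 0.85 in GFP-KLF2 cells and 6.29 ± 0.21 in evGFP cells (SD, n = 3 each), a difference of 4.75 on the log2 scale, or 27-fold. Ranked from the highest to the lowest signed difference, *Upp1* was number 4 among 18193 genes, of which 9 exceeded 4. By replicate number the differences were 5.42, 5.30 and 3.54, so that the third pair stood below the others. Leaving out GFP-KLF2 replicate 3 gave a difference of 5.24, and leaving out any other array gave 4.49 to 4.87.

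The profiles most like that of *Upp1* over the 6 arrays were those of *Nupr1*, *Crabp2*, *Grhl3*, *Serpinb9b* and *Dsp*. Likeness was taken as the root mean square difference in log2 values after the evGFP mean of each gene had been subtracted, and it was 0.27, 0.47, 0.49, 0.56 and 0.65 in that order. *Nupr1*, a stress-induced nuclear protein, read 11.13, 11.50 and 10.35 in GFP-KLF2 cells, against 6.05, 5.84 and 6.23 in evGFP cells. *Crabp2*, a binding protein of retinoic acid, read 10.35, 9.50 and 9.36 in GFP-KLF2 cells, against 4.71, 5.53 and 4.95 in evGFP cells. In *Nupr1*, as in *Upp1*, replicate 3 was the lowest of the GFP-KLF2 arrays and the highest of the evGFP arrays, whereas in *Crabp2* evGFP replicate 2 was the highest. *Grhl3*, an epithelial transcription factor, *Serpinb9b*, a serine protease inhibitor, and *Dsp*, the desmosomal protein desmoplakin, had differences of 4.34, 5.15 and 5.65. These 5 were found by their likeness in these arrays and carry no test. The measure depends largely on the size of the difference, which exceeded 4 in only 9 genes, *Upp1* and these 5 among them.

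**Figure D1:**
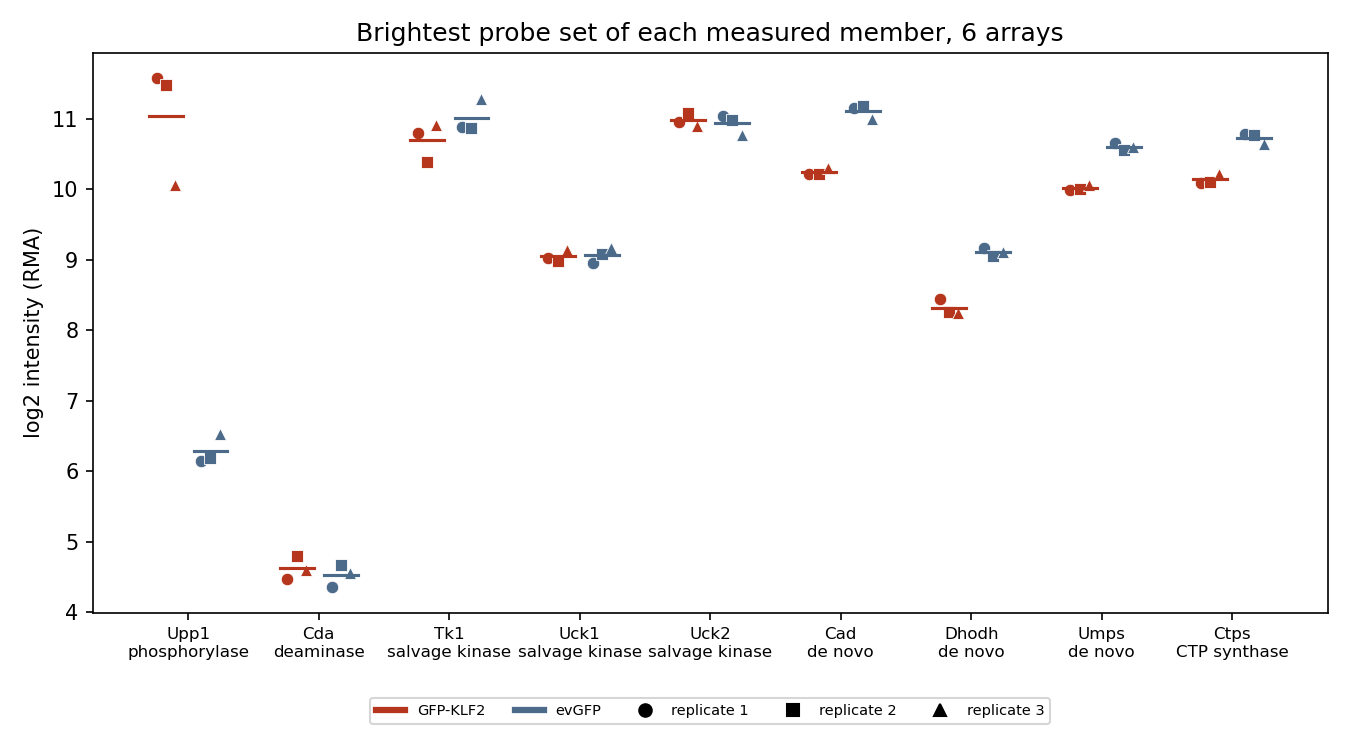
Log2 intensity of the brightest probe set of each of the 9 measured members, with GFP-KLF2 arrays in red to the left and evGFP arrays in blue to the right of each pair, symbols for replicates 1 to 3 and bars for group means. *Upp1* lies at 10.07 to 11.57 in GFP-KLF2 arrays against 6.15 to 6.53 in evGFP arrays, *Cad*, *Dhodh*, *Umps* and *Ctps* are lower in every GFP-KLF2 array, and the groups of the other 4 genes overlap.

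The members of the de novo route and CTP synthase fell in GFP-KLF2 cells, and the salvage members other than *Upp1* did not pass the test. Of the 8 members with a test 4 fell, 0 rose by limma (0 also at an unadjusted p under 0.05) and 4 did not pass, with a median log2 fold change of -0.45. Among all genes 8.35% fell, and among the 6956 genes with a mean log2 intensity of at least 8, to which the 4 that fell belong, 16.3% did. Those 4 were *Cad*, *Dhodh*, *Umps* and *Ctps*, with GFP-KLF2 levels at 54.9% to 66.7% of evGFP levels, so that no fall reached 2-fold. In these 4, and in none of the other 4, the groups did not overlap, which held for 34.9% of all genes.

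*Cad* (Entrez gene 69719), whose product carries out the opening reactions of the pathway, had the lowest fold change of the members. It read 10.22, 10.22 and 10.31 in GFP-KLF2 cells, against 11.15, 11.19 and 11.00 in evGFP cells. Every GFP-KLF2 array thus lay below every evGFP array. The log2 fold change was -0.87 (standard error 0.08, adjusted p = 0.0016), with GFP-KLF2 cells at 54.9% of the evGFP level. A second probe set read 9.35, 9.40 and 9.64 in GFP-KLF2 cells, against 10.22, 10.44 and 10.17 in evGFP cells (log2 fold change -0.81, adjusted p = 0.00535). It gave the same picture, and the dimmest, with means of 4.34 in GFP-KLF2 cells and 4.23 in evGFP cells, was close to the lower quartile of the arrays and did not pass (0.11, adjusted p = 0.53).

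*Dhodh* (Entrez gene 56749), the mitochondrial dihydroorotate dehydrogenase, fell at both of its probe sets. The brighter read 8.44, 8.26 and 8.25 in GFP-KLF2 cells, against 9.17, 9.06 and 9.11 in evGFP cells (log2 fold change -0.80, standard error 0.08, adjusted p = 0.00232). The dimmer read 7.75, 7.81 and 7.70 in GFP-KLF2 cells, against 8.40, 8.41 and 8.36 in evGFP cells (log2 fold change -0.63, adjusted p = 0.0029). The groups were apart at both, and GFP-KLF2 cells had 57.6% of the evGFP level at the brighter and 64.4% at the dimmer.

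*Umps* (Entrez gene 22247), the bifunctional enzyme that completes uridine monophosphate, fell at 3 of its 4 probe sets. The brightest read 9.98, 10.01 and 10.06 in GFP-KLF2 cells, against 10.66, 10.55 and 10.60 in evGFP cells (log2 fold change -0.58, standard error 0.07, adjusted p = 0.00388). The next read 8.78, 8.78 and 8.96 in GFP-KLF2 cells, against 9.52, 9.39 and 9.50 in evGFP cells (-0.63, adjusted p = 0.00511). The third in brightness changed by -0.53 on the log2 scale (adjusted p = 0.0146), and all 3 placed the groups apart. The fourth, with means of 3.62 in GFP-KLF2 cells and 3.78 in evGFP cells, lay under the lower quartile of the arrays and did not pass (-0.16, adjusted p = 0.331). Its groups did not overlap either.

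*Ctps* (Entrez gene 51797), which encodes CTP synthase, had 1 probe set. It read 10.10, 10.11 and 10.22 in GFP-KLF2 cells, against 10.79, 10.77 and 10.64 in evGFP cells (log2 fold change -0.59, standard error 0.08, adjusted p = 0.0054). By replicate number the differences were -0.69, -0.66 and -0.42 in *Ctps* and -0.93, -0.97 and -0.69 in *Cad*, so that the third pair differed least in both, as it did in *Upp1*. In *Dhodh*, with -0.73, -0.80 and -0.86, the third pair differed most. The call of each of the 4 genes remained when any 1 array was left out and with the replicate number as a block.

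Of the salvage members, *Uck2* (Entrez gene 80914), a uridine-cytidine kinase, read 10.95, 11.09 and 10.89 in GFP-KLF2 cells, against 11.04, 10.99 and 10.78 in evGFP cells at its brightest probe set. The groups overlapped, and the log2 fold change was 0.04 (95% confidence interval -0.19 to 0.27, adjusted p = 0.855). Its other 5 probe sets had log2 fold changes of 0.06 to 0.19 and none passed (adjusted p = 0.486 to 0.768). The related kinase *Uck1* (Entrez gene 22245) read 9.02, 8.98 and 9.15 in GFP-KLF2 cells, against 8.96, 9.09 and 9.17 in evGFP cells. Its log2 fold change was -0.02 (95% confidence interval -0.23 to 0.19, adjusted p = 0.932). Both intervals leave room for differences of about the same size in either direction.

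*Tk1* (Entrez gene 21877), the cytosolic thymidine kinase whose level rises as cells enter S phase, read 10.80, 10.39 and 10.91 in GFP-KLF2 cells, against 10.88, 10.87 and 11.28 in evGFP cells. Each GFP-KLF2 array was below the evGFP array of the same number, with differences of -0.08, -0.48 and -0.37, but the groups overlapped. The log2 fold change was -0.31 (95% confidence interval -0.70 to 0.07, adjusted p = 0.308). *Cda* (Entrez gene 72269), the cytidine deaminase, read 4.48, 4.80 and 4.60 in GFP-KLF2 cells, against 4.36, 4.67 and 4.56 in evGFP cells. These levels were near the lower quartile of the arrays, and the log2 fold change was 0.10 (95% confidence interval -0.17 to 0.37, adjusted p = 0.69), so that a change in so dim a gene may not be detectable here.

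**Figure D2:**
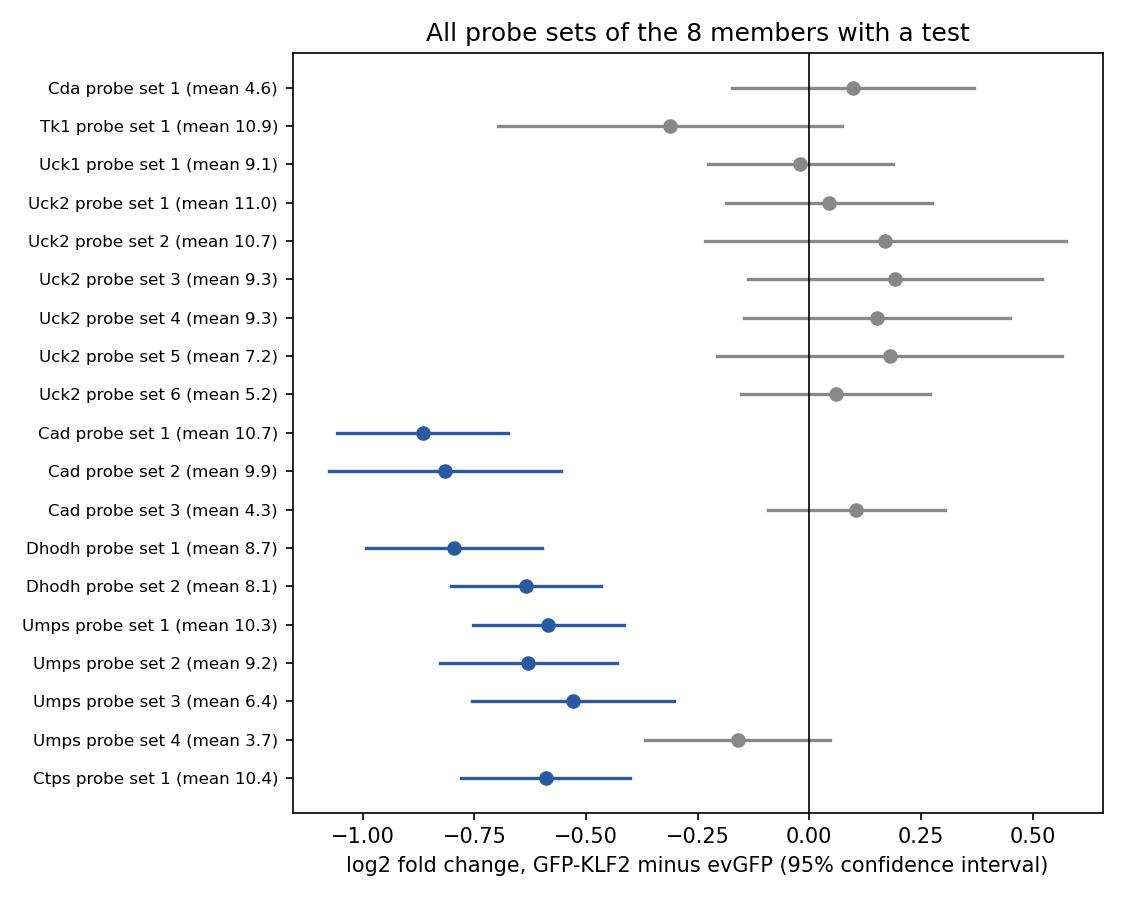
Log2 fold change, GFP-KLF2 minus evGFP, with its 95% confidence interval for the 19 probe sets of the 8 members with a test, numbered by brightness with the mean log2 intensity in brackets. Blue marks probe sets that fell and grey those that did not pass, and the 8 blue ones are 2 of *Cad*, 2 of *Dhodh*, 3 of *Umps* and 1 of *Ctps*, between -0.87 and -0.53.

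Counted by probe set, 8 of 19 fell, 0 rose (0 also at an unadjusted p under 0.05) and 11 did not pass, where 7.58% of all probe sets annotated to 1 gene fell. Probe sets of a gene read the same RNA, so that these are not 8 separate results. The probe sets of *Cad* and *Umps* that did not pass were the dimmest of their genes. The number that fell was 7 without GFP-KLF2 replicate 1, GFP-KLF2 replicate 2 or evGFP replicate 1, and 8 without any other array.

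The wider pathway was more mixed. Of 53 listed genes of pyrimidine synthesis, salvage, deoxynucleotide supply, breakdown and nucleoside transport besides the members, 47 were measured. Of these 4 rose, 12 fell and 31 did not pass, with a median log2 fold change of -0.09. With the replicate number as a block 8 rose and 13 fell. The number that passed was 7 without evGFP replicate 2, 9 without evGFP replicate 1 and 10 without GFP-KLF2 replicate 1, and 13 to 17 without any other array. Among all genes 6.22% rose and 8.35% fell, with a median of -0.01. Among the 6956 genes with a mean log2 intensity of at least 8, 11.1% rose and 16.3% fell, with a median of -0.08. The counts of each list below are to be read beside these shares. Genes of these lists that are named below without having passed, and *Prps2*, were chosen after their values were seen.

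Some further genes listed for pyrimidine synthesis fell as well. All of these belong to the supply of aspartate or phosphoribosyl pyrophosphate, which pyrimidine synthesis is not alone in using. Of the 8 measured genes of this list 5 fell and 0 rose (0 also at an unadjusted p under 0.05), with a median of -0.50. *Got1*, the cytosolic aspartate aminotransferase, read 9.75, 9.86 and 9.81 in GFP-KLF2 cells, against 10.61, 10.45 and 10.46 in evGFP cells (log2 fold change -0.70, adjusted p = 0.00304). The groups were apart. Its mitochondrial counterpart *Got2* changed by -0.52 on the log2 scale (adjusted p = 0.0115). *Prps1* (-0.52, adjusted p = 0.0109) and *Prps2* (-0.48, adjusted p = 0.0164), which make phosphoribosyl pyrophosphate, and *Prpsap2* (-0.54, adjusted p = 0.00809), a protein associated with these enzymes, made up the 5. The other probe sets of *Got2* had log2 fold changes of -0.68 to -0.11. The calls were lost for *Prps1* without evGFP replicate 2 (adjusted p = 0.0497) and *Prps2* without evGFP replicates 1 or 2 (adjusted p = 0.0573 to 0.0578), and the number that passed was 3 without evGFP replicate 2. *Prpsap1*, the relative of *Prpsap2* (-0.11, adjusted p = 0.476), and *Cps1*, the ammonia-dependent carbamoyl phosphate synthetase (0.00, adjusted p = 0.987), did not pass. *Ctps2*, the second CTP synthase, did not pass either, with a log2 fold change of -0.13 (95% confidence interval -0.34 to 0.09).

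In the list of salvage 2 of 13 measured genes fell and 0 rose by limma, where 3 rose and 3 fell at an unadjusted p under 0.05. *Nme4*, a mitochondrial nucleoside diphosphate kinase, read 7.14, 6.48 and 7.33 in GFP-KLF2 cells, against 8.24, 7.99 and 8.16 in evGFP cells (log2 fold change -1.15, standard error 0.21, adjusted p = 0.014). *Nme6*, of the same family, changed by -0.52 on the log2 scale (adjusted p = 0.0163). The calls were lost for *Nme4* without evGFP replicate 1 (adjusted p = 0.0542) and *Nme6* without GFP-KLF2 replicate 1 or evGFP replicates 1 or 2 (adjusted p = 0.0596 to 0.0666). Over the list, the number that passed was 1, 2 and 3 without GFP-KLF2 replicates 1, 2 and 3 and 0, 1 and 4 without evGFP replicates 1, 2 and 3, and it was 4 after cyclic loess and 5 with the replicate block. *Upp2*, the second uridine phosphorylase, was at 4.07 in GFP-KLF2 cells and 4.17 in evGFP cells, under the lower quartile of the arrays, with a log2 fold change of -0.11 (95% confidence interval -0.41 to 0.19). *Pnp*, the purine nucleoside phosphorylase, had -0.09 (95% confidence interval -0.26 to 0.09). Neither of these 2 relatives of *Upp1* in function passed the test.

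*Cmpk2*, a mitochondrial UMP-CMP kinase that is also an interferon-stimulated gene, read 9.19, 8.15 and 6.92 in GFP-KLF2 cells, against 6.81, 6.13 and 5.36 in evGFP cells. The groups were just apart, and in both groups replicate 1 was the highest and replicate 3 the lowest. Its log2 fold change of 1.99 did not pass the test (adjusted p = 0.0668) and passed with the replicate number as a block (0.00122). *Cmpk1*, the cytosolic UMP-CMP kinase (0.41, adjusted p = 0.0618, 0.0177 with the block), and *Uckl1*, a homologue of the uridine kinases (0.41, adjusted p = 0.0852, 0.0248 with the block), likewise passed only with the block.

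Genes of deoxynucleotide supply moved in both directions, with 2 of 9 measured higher and 4 lower. *Samhd1*, which hydrolyses deoxynucleoside triphosphates, read 11.97, 12.00 and 11.38 in GFP-KLF2 cells, against 10.59, 10.24 and 9.83 in evGFP cells (log2 fold change 1.57, standard error 0.23, adjusted p = 0.00677). *Dctd*, the deaminase of deoxycytidine monophosphate, read 7.39, 7.25 and 7.27 in GFP-KLF2 cells, against 8.35, 8.21 and 8.08 in evGFP cells (log2 fold change -0.91, adjusted p = 0.00207). Both placed the groups apart, *Samhd1* upward and *Dctd* downward. *Shmt1*, a serine hydroxymethyltransferase of the folate cycle, changed by -0.70 on the log2 scale (adjusted p = 0.00728), and *Dut*, the dUTPase, changed by -0.50 on the log2 scale (adjusted p = 0.0113). The call was lost for *Dut* without GFP-KLF2 replicate 1 or evGFP replicate 2 (adjusted p = 0.0462 to 0.05), and the number called in this list was 3, 5 and 6 without GFP-KLF2 replicates 1, 2 and 3 and 4, 3 and 5 without evGFP replicates 1, 2 and 3. The thymidylate synthase gene *Tyms* did not pass (-0.19, adjusted p = 0.208).

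Of 12 measured genes of pyrimidine breakdown 2 rose and 1 fell, where 6.22% of all genes rose and 8.35% fell. *Nt5e*, which encodes the surface nucleotidase CD73, read 8.04, 9.39 and 8.42 in GFP-KLF2 cells, against 6.72, 7.40 and 7.13 in evGFP cells (log2 fold change 1.53, adjusted p = 0.0272). The groups were apart, with GFP-KLF2 replicate 2 the highest, but its 2 other probe sets had log2 fold changes of only 0.01 and 0.48. *Nt5c3*, a pyrimidine nucleotidase, changed by 0.31 on the log2 scale (adjusted p = 0.0334), and its other probe set had a log2 fold change of -0.01. *Entpd5*, a nucleoside diphosphatase, changed by -0.63 on the log2 scale (adjusted p = 0.0237). The calls were lost for *Nt5e* without GFP-KLF2 replicate 3 or evGFP replicates 1, 2 or 3 (adjusted p = 0.051 to 0.0908), *Nt5c3* without any 1 array (adjusted p = 0.0584 to 0.108) and *Entpd5* without GFP-KLF2 replicates 1 or 2 or evGFP replicates 2 or 3 (adjusted p = 0.0627 to 0.0897), and the number called in this list was 1, 1 and 1 without GFP-KLF2 replicates 1, 2 and 3 and 1, 0 and 0 without evGFP replicates 1, 2 and 3. The other 5 probe sets of *Entpd5* had log2 fold changes of -0.67 to -0.04. *Dpyd*, *Dpys* and *Upb1*, which degrade uracil in turn, were at 3.61, 3.91 and 4.50 in GFP-KLF2 cells and at 3.51, 3.96 and 4.46 in evGFP cells, and none passed.

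Of 5 measured nucleoside transporters 0 passed by limma, and 2 had an unadjusted p under 0.05. *Slc29a1*, an equilibrative transporter of the plasma membrane, differed by -0.49 on the log2 scale (adjusted p = 0.0572, 0.0223 with the block). *Slc29a3*, its relative in lysosomes, differed by 0.54 on the log2 scale (adjusted p = 0.08, 0.018 with the block). The 2 differences thus ran in opposite directions.

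Uridine phosphorylase releases ribose phosphate. Of 9 measured genes listed for the metabolism of ribose phosphate and related sugar phosphates, 4 fell and 0 rose by limma. At an unadjusted p under 0.05, 1 rose. *Pgm2*, a phosphopentomutase, read 8.77, 8.10 and 8.87 in GFP-KLF2 cells, against 8.52, 8.43 and 8.94 in evGFP cells, and the groups overlapped (log2 fold change -0.05, adjusted p = 0.934). The 4 that fell were *Dera*, the deoxyribose phosphate aldolase (-0.70, adjusted p = 0.0239), and the pentose phosphate enzymes *Rpia* (-0.48, adjusted p = 0.00716), *Rpe* (-0.43, adjusted p = 0.0157) and *Tkt* (-0.33, adjusted p = 0.0411). The calls were lost for *Dera* without GFP-KLF2 replicates 2 or 3 or evGFP replicates 1, 2 or 3 (adjusted p = 0.0462 to 0.0826), *Rpe* without GFP-KLF2 replicates 1 or 2 or evGFP replicate 1 (adjusted p = 0.0543 to 0.0609) and *Tkt* without any 1 array (adjusted p = 0.0654 to 0.119), and the number called in this list was 2, 1 and 2 without GFP-KLF2 replicates 1, 2 and 3 and 1, 2 and 2 without evGFP replicates 1, 2 and 3. Other probe sets had log2 fold changes of -0.12 for *Dera* and -0.18 to 0.10 for *Rpe*.

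**Figure D3:**
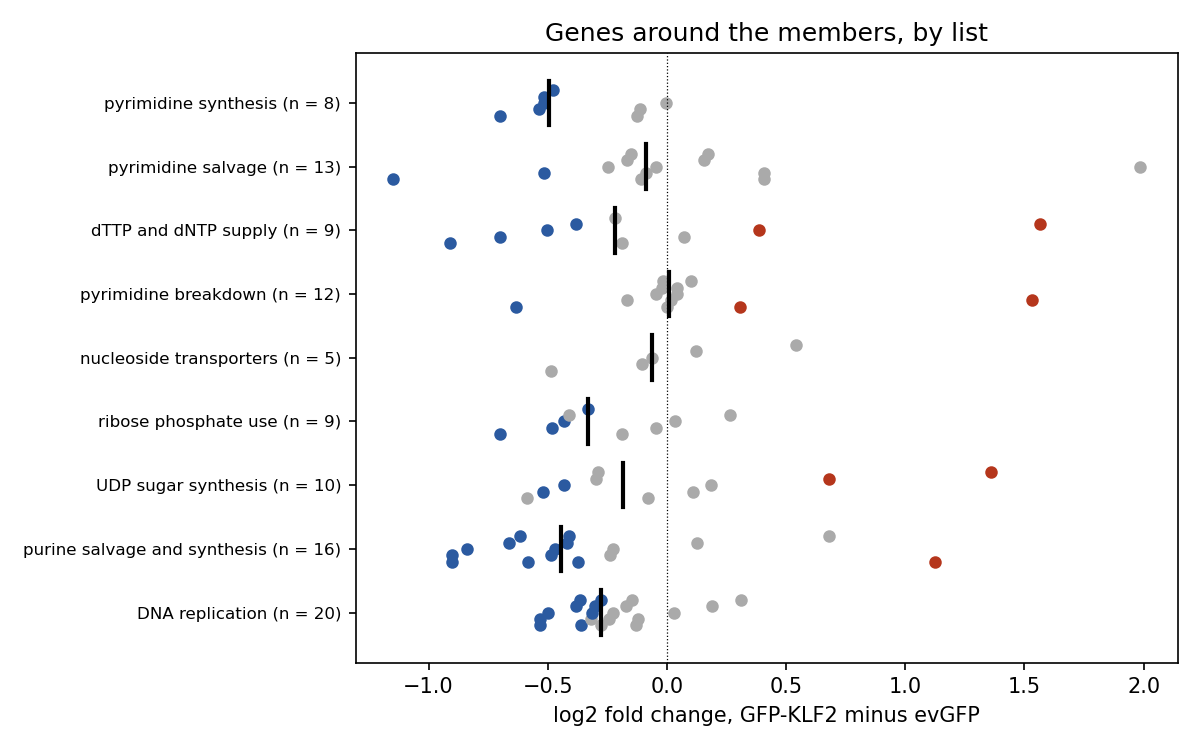
Log2 fold change, GFP-KLF2 minus evGFP, of the measured genes of 9 lists around the members, each point a gene by its brightest probe set, with vertical offsets only to separate points. Red marks genes that rose, blue genes that fell and grey genes that did not pass, and black bars are medians. The list of pyrimidine synthesis has its median at -0.50 with 5 of 8 genes blue, while pyrimidine breakdown has its median at 0.01. The 5 blue genes of the first list belong to the supply of aspartate or phosphoribosyl pyrophosphate.

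Genes of DNA replication, given here because nucleotide supply serves it, fell in 9 of 20 measured cases and rose in 0 by limma (1 at an unadjusted p under 0.05), with a median of -0.28. Their lowest mean in GFP-KLF2 cells was 9.28, and among all genes with a mean log2 intensity of at least 8, 16.3% fell, with a median of -0.08. The count of replication genes that fell depended on the arrays and the scaling. The number that passed was 2, 1 and 2 without GFP-KLF2 replicates 1, 2 and 3 and 0, 1 and 4 without evGFP replicates 1, 2 and 3, and after cyclic loess 4 fell and 1 rose. With the replicate number as a block *Ccne1*, cyclin E1, rose (0.31, adjusted p = 0.0861, 0.0381 with the block), *Cdt1* fell (-0.32, adjusted p = 0.123, 0.0367 with the block) and *Mcm3* no longer passed (-0.28, adjusted p = 0.0449, 0.0479 with the block). The lowest were *Gins2* (-0.53, adjusted p = 0.0223) and *Pola1* (-0.53, adjusted p = 0.0206), followed by *Gins1* (-0.50, adjusted p = 0.013) and *Mcm5* (-0.38, adjusted p = 0.0196). The other probe set of *Pola1* had a log2 fold change of 0.14. The calls were lost for *Gins2* without GFP-KLF2 replicates 1 or 2 or evGFP replicates 1, 2 or 3 (adjusted p = 0.0502 to 0.0756), *Pola1* without GFP-KLF2 replicates 2 or 3 or evGFP replicates 1 or 2 (adjusted p = 0.0462 to 0.0708), *Gins1* without evGFP replicate 1 (adjusted p = 0.0498) and *Mcm5* without GFP-KLF2 replicates 1, 2 or 3 or evGFP replicates 1 or 2 (adjusted p = 0.052 to 0.0678). These genes encode parts of the replicative helicase and of the primase complex. *Tk1*, at -0.31, lay near the median of this list. Whether the 4 members that fell differ from these genes was not tested.

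The cells carried the markers of CD8 T cells. All 9 measured had means of at least 9.29 in GFP-KLF2 cells and at least 6.77 in evGFP cells, above the medians of the arrays. *Prf1*, which encodes perforin, rose (2.52, adjusted p = 0.00442, with -0.03 at its other probe set), as did *Cd8b1* (0.45, adjusted p = 0.0107). Summed levels of 2 other marker lists were higher in every GFP-KLF2 array. For 7 epithelial markers the log2 of the sum was 8.96 to 9.67 in GFP-KLF2 arrays, against 8.38 to 8.90 in evGFP arrays, with *Cdh1* the largest difference (1.86, adjusted p = 0.164, 0.00626 with the block), *Krt18* at 4.11 in GFP-KLF2 cells and 4.26 in evGFP cells, and 0 passing by limma (2 at an unadjusted p under 0.05). Of the 7, 6 had a positive difference. For 10 myeloid markers it was 8.90 to 9.03 in GFP-KLF2 arrays, against 8.73 to 8.87 in evGFP arrays, with *Lyz2* at 5.31 in GFP-KLF2 cells and 5.32 in evGFP cells, and 0 passing (1 at an unadjusted p under 0.05). That gene was *Cd68*, which read 6.94, 6.67 and 6.73 in GFP-KLF2 cells, against 6.37, 6.17 and 6.50 in evGFP cells (0.43, adjusted p = 0.049, 0.0252 with the block), and 8 of the 10 had a positive difference. For 5 B cell, 7 granulocyte and 5 platelet markers the ranges overlapped and 0 passed by limma, where 3, 0 and 1 had an unadjusted p under 0.05. A sign of RNA quality, the excess of the 3′ over the 5′ control probe set of *Actb*, was 0.077 to 0.084 in GFP-KLF2 arrays and 0.111 to 0.121 in evGFP arrays. For *Gapdh* the same measure overlapped, at -0.169 to -0.139 in GFP-KLF2 arrays and -0.179 to -0.116 in evGFP arrays. The part of the marker and *Actb* differences in the values of *Upp1* and of the members that fell was not tested.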

How the data were processed

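RNA of sorted GFP-KLF2 and evGFP CTL was put on Affymetrix 3′ arrays for mouse genes, 3 per group. RMA was run by the authors to make the intensity values, which they fitted with limma (versions not given in the sources used here), and the deposited intensities are on a linear scale. Their log2 was taken, 64 control probe sets were left out of 45101, and a constant per group was fitted with limma 3.58.1 in R 4.3.3, with 2-sided moderated tests and Benjamini-Hochberg adjustment over 45037 probe sets. Of these 34945 name 1 gene in the platform annotation, 932 several and 9160 none, and only the first were used for genes. The methods print the threshold as a percentage. It was read as 0.046, and 0.00046 was an alternative. Arrays carry no read depth, and their number limits the precision.

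The members and lists were chosen with earlier results of these data known. Named were all members at all probe sets, up to 4 genes that passed with the largest absolute change in each pathway list and up to 2 in each marker list, and the 5 profiles most like *Upp1*. Other genes that are named, *Prps2* among them, were chosen after their values were seen. Deviations from group means correlated at 0.33, 0.44 and 0.47 between arrays of the same replicate number and at -0.38 to 0.06 otherwise, so that the numbers were taken to pair the arrays, and a fit with the number as a block was an alternative. The others were 2 thresholds, a fold minimum, median centring, cyclic loess, the mean over the probe sets of a gene, and array weights. Further ones were a robust prior with an intensity trend and leaving out each array. Removal of dim probe sets, or of those whose names end in _x_at or _s_at, completed them. The fit was tested on simulated data. Promoter windows came from RefSeq, and both strands were searched for CACCC.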

Additional observations from a re-analysis of the deposited data

How the results depend on the processing

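The 4 members passed, with the same sign, under all alternatives except the 2 that changed the threshold to a stricter one. Of these 2, 0.00046 is the threshold as the study prints it, and the study also required a change of at least 2-fold. Over 17 settings 127 of 135 values of the 8 members stayed on their side of the threshold, and the other 8 were these 4 genes under those 2 settings. At an adjusted p under 0.00046, 34 genes passed in all, with 0 members, 0 member probe sets and 0 other pyrimidine genes. With a change of at least 2-fold required as well, 535 genes passed in all, with 0 members, 0 member probe sets and 3 other pyrimidine genes. With the replicate number as a block 3764 genes passed, against 2650 without it, and the counts were 4 members, 8 member probe sets and 21 other pyrimidine genes against 16 without it. The block changed no call of a member. Without the probe sets whose names end in _x_at or _s_at, 6 member probe sets passed of the 14 that were left.

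With each array left out in turn 1147 to 2173 genes, 4 members in every case, 7 to 8 member probe sets and 7 to 17 other pyrimidine genes passed. The number of genes was 1147 without evGFP replicate 2, 1333 without evGFP replicate 1, 1353 without GFP-KLF2 replicate 1 and 1413 without GFP-KLF2 replicate 2, in fits with fewer arrays. The difference in *Upp1* was 4.49 to 5.24 over these fits, 4.74 after median centring and 4.85 after cyclic loess. The values of *Uck1* and *Uck2* that did not pass changed sign between settings, from -0.08 to 0.08 and from -0.04 to 0.14. After cyclic loess *Tkt*, *Gne* and *Pcyt2* no longer passed, and with the probe sets of each gene averaged *Nt5c3*, *Rpe*, *Tkt* and *Pola1* did not. For *Cda*, *Upp2* and the genes of uracil breakdown, dim signal may limit what can be detected, which was not tested.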

Other observations

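Many genes of purine synthesis, which like pyrimidine synthesis draws on phosphoribosyl pyrophosphate, fell in GFP-KLF2 cells. Of 16 measured genes of purine salvage and synthesis 11 fell, 1 rose and 4 did not pass, with a median log2 fold change of -0.44 beside -0.01 for all genes. The number that passed was 5, 6 and 9 without GFP-KLF2 replicates 1, 2 and 3 and 6, 5 and 9 without evGFP replicates 1, 2 and 3, and 8 after cyclic loess. Among all genes 8.35% fell, and among those with a mean log2 intensity of at least 8, 16.3% fell, with a median of -0.08. *Ppat*, which encodes the amidotransferase that opens the de novo route, read 9.86, 10.02 and 9.90 in GFP-KLF2 cells, against 10.94, 10.75 and 10.61 in evGFP cells (log2 fold change -0.84, adjusted p = 0.00368). *Pfas*, a later enzyme of the route, read 9.18, 8.88 and 9.26 in GFP-KLF2 cells, against 10.21, 9.87 and 9.93 in evGFP cells (-0.90, adjusted p = 0.00695). In both every GFP-KLF2 array was below every evGFP array. *Adk*, the adenosine kinase of salvage, changed by -0.90 on the log2 scale (adjusted p = 0.00401). Other probe sets had log2 fold changes of -0.62 to 0.09 for *Ppat* and -0.83 to -0.12 for *Adk*. The gene that rose was *Ampd3*, an AMP deaminase, at 5.72, 4.85 and 5.30 in GFP-KLF2 cells, against 4.07, 4.06 and 4.36 in evGFP cells (1.13, adjusted p = 0.0154). The call was lost for *Ampd3* without evGFP replicates 1 or 2 (adjusted p = 0.0582 to 0.0629).

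Genes of a list that joins UDP sugar synthesis with sialic acid and phospholipid synthesis, only some of which spend UTP or CTP, moved in both directions. Of 10 measured, 2 were higher and 2 lower, or 2 and 4 with the replicate number as a block. Among all genes with a mean log2 intensity of at least 8, 11.1% rose and 16.3% fell. The 4 listed genes that passed serve phospholipid or sialic acid synthesis. *Ugp2*, *Uap1*, *Ugdh* and *Uxs1*, which make UDP sugars, had log2 fold changes of 0.11, 0.18, -0.59 and -0.29. They did not pass (adjusted p = 0.057 to 0.698), and *Ugdh* and *Uxs1* passed with the block. For the whole list cyclic loess gave 2 higher and 0 lower. The number of these genes that passed was 2, 2 and 3 without GFP-KLF2 replicates 1, 2 and 3 and 2, 0 and 3 without evGFP replicates 1, 2 and 3. *Pcyt1a*, the CTP-dependent enzyme of phosphatidylcholine synthesis, read 9.10, 9.65 and 8.59 in GFP-KLF2 cells, against 7.98, 7.59 and 7.69 in evGFP cells (log2 fold change 1.36, adjusted p = 0.0149), whereas *Pcyt2*, its counterpart for phosphatidylethanolamine, changed by -0.43 on the log2 scale (adjusted p = 0.0172). *Cmas*, which makes CMP-sialic acid, read 11.82, 11.54 and 11.69 in GFP-KLF2 cells, against 10.90, 10.92 and 11.19 in evGFP cells (0.68, adjusted p = 0.0106), and *Gne*, at the start of sialic acid synthesis, changed by -0.52 on the log2 scale (adjusted p = 0.0364). The other probe set of *Gne* had a log2 fold change of -0.22. The calls were lost for *Pcyt1a* without GFP-KLF2 replicate 1 or evGFP replicate 2 (adjusted p = 0.0516 to 0.0616), *Pcyt2* without GFP-KLF2 replicates 2 or 3 or evGFP replicates 1 or 2 (adjusted p = 0.0487 to 0.062), *Cmas* without evGFP replicate 2 (adjusted p = 0.0491) and *Gne* without GFP-KLF2 replicates 1 or 2 or evGFP replicates 1, 2 or 3 (adjusted p = 0.063 to 0.11).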
